A study of Mus musculus with 6 samples.

Results

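The heat shock proteins and other molecular chaperones of mouse were followed in bulk RNA-seq of esophageal squamous cell carcinomas. Members were the gene symbols whose names mark them as HSP90, HSP70, HSP110, HSP60, HSP10 or small heat shock genes (Hsp90, Hspa, Hspb, Hspd, Hspe and Hsph), as J proteins of the Dnaja, Dnajb and Dnajc families, as chaperonin subunits (Cct) or as heat shock factors (Hsf). This rule took 87 of 41253 gene symbols, after 9 names marked as pseudogenes were left out. For the comparison they were sorted by place and use: 20 cytosolic chaperones, 7 subunits of the cytosolic chaperonin, 9 mitochondrial, 14 of the endoplasmic reticulum (ER), 5 small heat shock genes of muscle, 13 known mainly from the germ line, 11 vesicle, nuclear and other J proteins, 4 heat shock factors, 3 others and 1 left unclassified.

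The study sequenced total RNA from tumors of C57BL/6 mice, 3 of genotype Ptpro-/- (libraries labelled Ptpro-KO) and 3 of genotype Ptpro+/+ (libraries labelled WT). All mice had received 4NQO, a quinoline carcinogen that causes tumors of the tongue and esophagus, at a labelled 100 mg/mL in drinking water for 16 weeks, starting at 6 weeks of age. They were killed 12 weeks after the end of treatment, or earlier when they lost much weight. The design text gives an age of 34 weeks and 3 mice per genotype, while a label tag gives week 6. The sources used here do not say how the Ptpro allele was made.

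Chaperones hold unfolded or unfinished proteins in solution and help them reach their native shape. HSP70 proteins bind short unfolded stretches under the control of J proteins, which start their ATP cycle, and of nucleotide exchange factors, which end it, and HSP90 takes over many of their clients. Each compartment has its own set, and under stress the transcription factor HSF1 raises the cytosolic genes while the unfolded protein response raises those of the ER. Stratified squamous epithelium such as that of the esophagus is rich in the small heat shock protein HSP27, the product of Hspb1.

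The labels were first checked on the targeted gene, which codes for a receptor tyrosine phosphatase. Ptpro had 30.3, 42.8 and 50.6 CPM (read counts scaled to library size) in the libraries labelled Ptpro-KO and 5.05, 0.359 and 2.38 CPM in those labelled WT. The libraries labelled Ptpro-KO were all above those labelled WT, which goes against the labels, with a log2 fold change of 3.97 and an edgeR adjusted p of 0.0617. Every direction below therefore compares libraries by their deposited label, and would turn round if the labels were exchanged, which was not tested. Library sizes for CPM were scaled by TMM, fold changes are Ptpro-KO minus WT, and adjusted p values are from edgeR's quasi-likelihood test with Benjamini-Hochberg adjustment over the 17663 genes tested.

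Libraries held 35551442 to 39827467 reads under the label Ptpro-KO and 25745240 to 37595506 reads under WT, and the members took 0.871 to 0.991% of each. Squamous keratins and partners were present in all 6 libraries. Their 12 marker genes summed to 29785, 29368 and 24489 CPM in libraries labelled Ptpro-KO, against 78565, 70599 and 75447 CPM in those labelled WT, and 7 of the 12 fell. Fibroblast markers summed to 4553 to 6852 CPM under Ptpro-KO and 664 to 2745 CPM under WT, with 3 of 10 higher, and macrophage markers to 628 to 1185 CPM and 88.8 to 364 CPM, with 0 of 9 tested past the threshold but all 9 higher at an unadjusted p under 0.05 in edgeR and all 9 called by DESeq2. Simple epithelium markers summed to 1261 to 11510 CPM under Ptpro-KO and 109 to 255 CPM under WT, with 5 of 12 higher. Replicate 3 labelled Ptpro-KO stood apart: it had 6209 CPM of Pgc, 2797 of Tff1 and 743 of Muc5ac, genes of gastric epithelium that reached at most 9.13 CPM in any other library. Skeletal muscle markers summed to 42912, 17627 and 409 CPM under Ptpro-KO and 42795, 83.3 and 27253 CPM under WT, so that 1 library of each label had little muscle RNA. Whether a lower value in such tissue reflects fewer cells of a type or less RNA per cell cannot be told apart.

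Of the 87 members, 77 passed the filter on low counts. Among these, 4 fell and 0 rose past an adjusted p of 0.05, against 2.29% of all tested genes that were lower and 1.81% that were higher. At an unadjusted p under 0.05, 11 members were lower and 1 was higher by edgeR, against 11.3 and 13.7% of all genes. DESeq2 called 7 lower and 1 higher at its adjusted threshold, where 8.36 and 9.57% of its genes with an adjusted p were called. The 4 genes were Hspb1, Dnajb1, Hspa1a and Hspa1b, all of the cytosolic class. The log2 fold change was below 0 for 49 of the 77 members (median -0.09), against 46.7% of all genes (median 0.03). With library totals in place of TMM scaling, 33 of the 77 were below 0 (median 0.07). Library totals raised the median of all genes by 0.15 and brought it to 0.19. At an unadjusted p under 0.05 by edgeR, 6 members were then lower and 4 higher. In that fit 4559 of the 17663 genes had such a p, in either direction. The members' median lay 0.12 below that of all genes with either scaling, and without replicate 1 labelled Ptpro-KO it was -0.19. In CPM with TMM, all libraries labelled Ptpro-KO lay below all labelled WT in 19 members and above in 2, against 15.7 and 16.8% of all genes. In RPKM, without TMM, some of the 19 overlapped, among them Hsp90ab1, Cct3, Cct4 and Cct5.

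**Figure D1:**
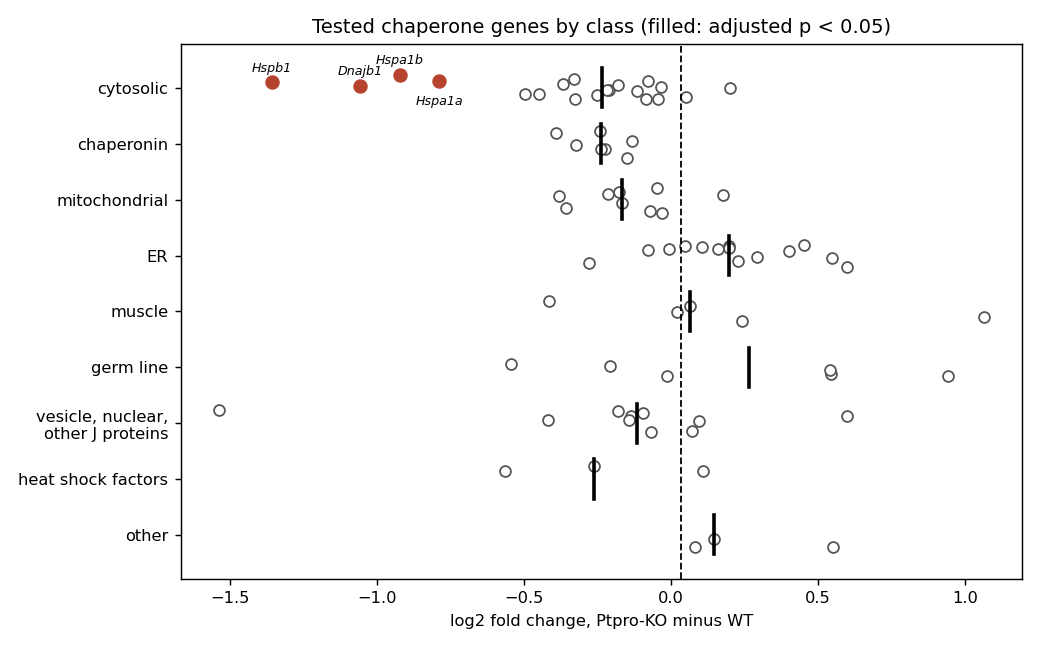
Log2 fold change (horizontal axis, Ptpro-KO minus WT) of the 77 tested members by class; filled points have an edgeR adjusted p under 0.05, black bars mark class medians and the dashed line the median of all genes (0.03). The filled points are Hspb1, Dnajb1, Hspa1b and Hspa1a, between -1.36 and -0.79, while ER genes lie mostly right of the line.

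All called members were cytosolic, 4 of the 20 in that class. Hspb1, which codes for HSP27, a small heat shock protein that keeps unfolding proteins from aggregating, was the member with the largest called change. It had 379, 207 and 280 CPM in libraries labelled Ptpro-KO, against 806, 657 and 755 CPM in those labelled WT. All 3 libraries labelled Ptpro-KO were low and the groups did not overlap, with means of 289 ± 86.4 CPM under Ptpro-KO and 739 ± 75.8 CPM under WT (SD, n = 3 each) and a log2 fold change of -1.36 (SE 0.24, edgeR adjusted p = 0.0434). Per transcript length Hspb1 was the second most abundant member after Hspa8, at a mean of 554 RPKM, reads scaled to transcript length and library total, over the 6 libraries.

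Dnajb1 codes for HSP40, the J protein that is induced with HSP70 and stimulates its ATPase. It had 64.8, 74.6 and 62.8 CPM in libraries labelled Ptpro-KO, against 145, 145 and 131 CPM in those labelled WT. The values were tight within each label and did not overlap, and Dnajb1 fell by 1.06 on the log2 scale (SE 0.11, edgeR adjusted p = 0.0140), the smallest adjusted p of any member.

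Hspa1a and Hspa1b code for the inducible cytosolic HSP70, which is nearly absent from many unstressed cells and rises with heat or proteotoxic stress. Hspa1a had 84.2, 118 and 105 CPM in libraries labelled Ptpro-KO, against 190, 167 and 175 CPM in those labelled WT. Hspa1b had 25.2, 34.6 and 27.5 CPM under Ptpro-KO and 62.3, 52.7 and 50.3 CPM under WT. Neither gene overlapped between the labels, and the log2 fold changes were -0.79 for Hspa1a (SE 0.15, edgeR adjusted p = 0.0484) and -0.92 for Hspa1b (SE 0.16, edgeR adjusted p = 0.0415).

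The called genes are protein-coding genes of GENCODE M21 on GRCm38. Hspb1 lies on chromosome 5, bases 135887919 to 135889563 (plus strand) and Dnajb1 on chromosome 8, bases 83608193 to 83612653 (plus strand). Hspa1a lies on chromosome 17, bases 34969190 to 34972156 (minus strand) and Hspa1b on chromosome 17, bases 34956436 to 34959238 (minus strand). The last pair are near-identical neighbors, 9951 bases apart, and 11 of 1926 aligned coding bases differ, so that the division of reads between them is uncertain. Their summed level does not depend on that division if each shared read was counted once, in either gene of the pair. The sources used here do not state this. The sum was 109, 153 and 133 CPM in libraries labelled Ptpro-KO and 252, 220 and 225 CPM in those labelled WT. Fitted as 1 gene, the pair fell by 0.82 on the log2 scale (SE 0.15, edgeR adjusted p = 0.0463). Hspa1b took 20.7 to 23.1% of the pair's reads under Ptpro-KO and 22.4 to 24.7% under WT, ranges that overlapped.

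HSF1 binds the heat shock element, inverted repeats of GAA and TTC units, and the bases before the start sites of called genes are shown because this is where such elements act. The sequences are RefSeq's, for 250 bases upstream of the start site in GRCm38.p6, written 5′ to 3′ on the strand of the gene. Capitals mark 2 adjoining units, GAA and TTC in either order with any 2 bases between them. The windows are chr17:34972157-34972406 (minus strand) for Hspa1a, chr17:34959239-34959488 (minus strand) for Hspa1b and chr5:135887669-135887918 (plus strand) for Hspb1.
Hspa1a: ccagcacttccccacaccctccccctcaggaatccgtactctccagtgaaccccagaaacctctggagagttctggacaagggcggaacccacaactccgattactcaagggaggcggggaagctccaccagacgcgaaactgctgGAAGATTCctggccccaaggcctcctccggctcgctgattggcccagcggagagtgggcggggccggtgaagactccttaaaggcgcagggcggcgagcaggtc
Hspa1b: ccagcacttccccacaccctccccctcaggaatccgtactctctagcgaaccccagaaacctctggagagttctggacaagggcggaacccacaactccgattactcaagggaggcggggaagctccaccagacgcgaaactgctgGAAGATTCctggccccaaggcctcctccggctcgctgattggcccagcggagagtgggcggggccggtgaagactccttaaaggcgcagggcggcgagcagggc
Hspb1: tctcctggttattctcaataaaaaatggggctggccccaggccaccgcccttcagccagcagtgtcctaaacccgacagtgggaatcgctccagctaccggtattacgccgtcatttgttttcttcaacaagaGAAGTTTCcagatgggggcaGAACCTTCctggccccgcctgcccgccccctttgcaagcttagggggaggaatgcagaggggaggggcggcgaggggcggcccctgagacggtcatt
The windows of Hspa1a and Hspa1b differ at 3 of 250 bases, and in each the match lies at bases -104 to -97 from the start site. Hspb1 had 2 matches between bases -117 and -90. The promoter windows of Dnajb1 held no match of either length, which says only that these letters are not in them.

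Promoter windows of 300 bases (250 before to 50 after a start site, both strands) were found for 70 of the 87 members, 89 windows in all. The motif of 2 units lay in 23 of these (25.8%), against 15.1% of all 32851 mouse promoter windows. The motif of 3 units, which extends the shorter one by any 2 bases and a further GAA or TTC in alternation and so contains it, lay in 6 of the 89 (6.74%) and in 0.603% of all windows. The 4 genes that held it were Hspd1, Hspe1, Hsph1 and Dnajb6, none of which passed the test in these tumors. A match is a description of the letters and not a measured binding site.

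**Figure D2:**
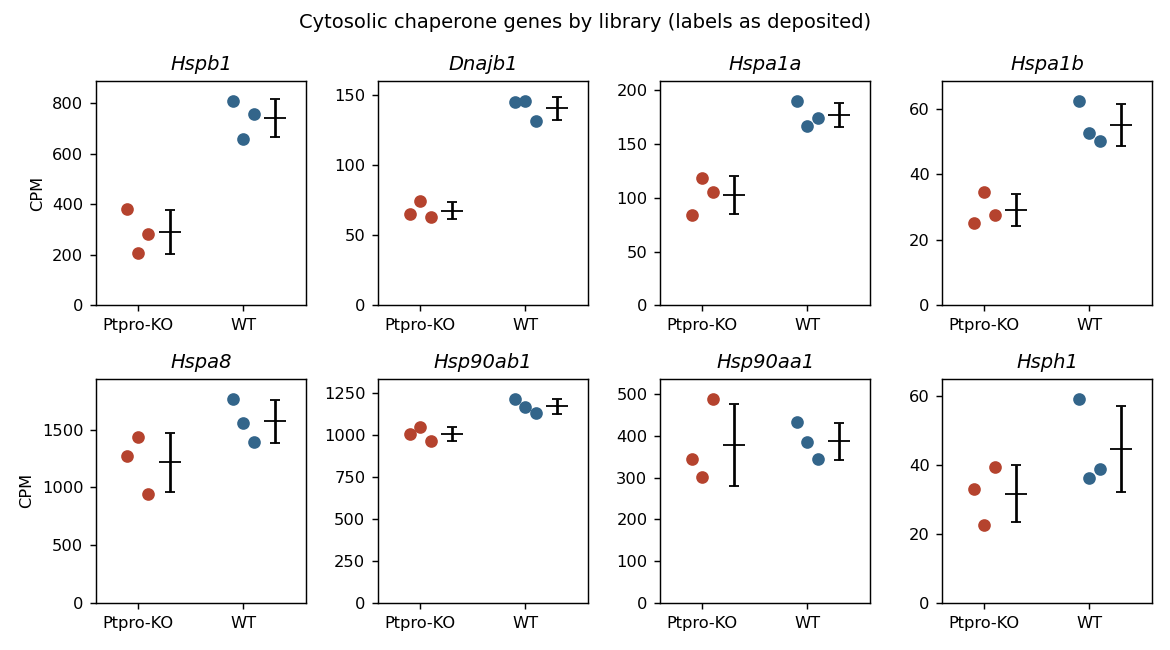
CPM of 8 cytosolic chaperone genes in each library (points, labels as deposited), with mean and SD at the right of each group (n = 3 each); the vertical axes start at 0. The upper row shows the called genes, whose groups do not overlap, and the lower row Hspa8, Hsp90ab1, Hsp90aa1 and Hsph1, of which only Hsp90ab1 has groups that do not overlap.

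None of the other cytosolic chaperones passed the test. With the called genes included, 18 of the 20 members had a log2 fold change below 0 (median -0.23). In 8 of 20 (40.0%) the labels did not overlap in CPM with TMM, with Ptpro-KO lower, against 15.7% of all genes. In RPKM, without TMM, Hsp90ab1, Dnaja2 and Dnajc7 of these overlapped. With library totals 13 of the 20 were below 0. The class median then lay 0.27 below that of all genes, as it did with TMM.

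Hspa8, the constitutive HSP70 known as HSC70, was the most abundant member per length (mean 578 RPKM). It had 1274, 1438 and 939 CPM in libraries labelled Ptpro-KO, against 1764, 1558 and 1390 CPM in those labelled WT. The groups overlapped through replicate 2 labelled Ptpro-KO, and the log2 fold change of -0.37 (SE 0.20) did not pass the test (edgeR adjusted p = 0.321).

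Hsp90ab1, the constitutive HSP90 gene, had 1005, 1051 and 967 CPM under Ptpro-KO, against 1216, 1170 and 1130 CPM under WT. The groups did not overlap in CPM but the difference was small, with a log2 fold change of -0.22 (SE 0.12, edgeR adjusted p = 0.305), though DESeq2 gave an adjusted p of 0.0396. In RPKM, without TMM, Hsp90ab1 overlapped, with 407 to 450 under Ptpro-KO and 431 to 455 under WT. Its stress-induced paralog Hsp90aa1 had 343, 302 and 488 CPM under Ptpro-KO and 432, 384 and 344 CPM under WT. The labels overlapped and the log2 fold change was -0.03.

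The exchange factors and remaining J proteins did not pass the test. Hspa4, an HSP110 exchange factor, averaged 216 CPM under Ptpro-KO and 295 CPM under WT (n = 3 each). Its groups did not overlap, and its log2 fold change was -0.45 (SE 0.17, edgeR adjusted p = 0.170). Hsph1, the inducible HSP110, had 33.1, 22.7 and 39.2 CPM under Ptpro-KO and 59.0, 36.3 and 38.8 CPM under WT, and replicate 1 labelled WT alone stood high. Dnaja1 and Dnaja2, general J partners of HSP70, had log2 fold changes of -0.04 and -0.25, and Dnajc7, which links HSP70 to HSP90, had -0.12. Dnajb6, which suppresses aggregation of polyglutamine proteins, had 0.05.

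Squamous markers moved with the called genes, as given above. Set against the summed squamous markers, Dnajb1 had 2.18, 2.54 and 2.56 CPM per 1000 marker CPM in libraries labelled Ptpro-KO and 1.84, 2.06 and 1.74 in those labelled WT. On that ratio the libraries labelled Ptpro-KO were the higher ones. Hspa1a likewise had 2.83 to 4.30 under Ptpro-KO and 2.31 to 2.41 under WT, and Hspa1b 0.847 to 1.18 under Ptpro-KO and 0.667 to 0.793 under WT. Hspb1 had 7.04 to 12.7 under Ptpro-KO and 9.30 to 10.3 under WT, so that the labels overlapped. The marker sum itself averaged 27881 CPM under Ptpro-KO and 74870 CPM under WT. A gene that falls less than this sum, or not at all, is bound to be higher on the ratio under Ptpro-KO. The ratio therefore does not set the called genes apart from others. The part of the tumors' epithelial content in the lower CPM of the called genes was not tested. The summed immediate early genes, which respond to stress and handling within minutes, had 488 to 729 CPM under Ptpro-KO and 562 to 1171 CPM under WT, with overlapping groups. Of these 11 genes, 10 had a log2 fold change below 0 (median -0.47), 0 passed in edgeR, and 1 was higher and 1 lower at an unadjusted p under 0.05, as by DESeq2. Without replicate 2 labelled WT, 6 of the 11 were below 0 (median -0.01). With both libraries poor in muscle RNA left out, 4 of the 11 were (median 0.09). The part of the immediate early genes in the called changes was not tested.

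Leaving out 1 library lowered the number of calls, among all genes as among the members. Without replicate 3 labelled Ptpro-KO, Dnajb1 still passed (log2 fold change -1.01, edgeR adjusted p = 0.0327). Leaving out any other library left 0 of the 4 past the threshold. In these fits 7 to 9 of 77 or 78 members were lower at an unadjusted p under 0.05 by edgeR, and 0 to 4 were higher. Such a p was reached by 3078 to 4363 of the 18004 to 18353 genes tested there, in either direction. Over all genes, 320 were called higher and 405 lower with all 6 libraries. None were called without replicate 2 labelled Ptpro-KO, replicate 2 labelled WT or replicate 3 labelled WT. Without replicate 1 labelled Ptpro-KO 41 were higher and 52 lower, and without replicate 1 labelled WT 50 and 82. Over all 15 alternative settings the log2 fold change ran from -1.15 to -0.91 for Dnajb1, from -1.63 to -1.17 for Hspb1, from -0.92 to -0.63 for Hspa1a and from -1.08 to -0.77 for Hspa1b.

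The partners of HSP70 and HSP90 were read from a list of 22 co-chaperones. Past the edgeR threshold 1 rose and 1 fell, where 1.81 and 2.29% of all genes did. At an unadjusted p under 0.05 by edgeR 1 was higher and 6 were lower, against 13.7 and 11.3% of all genes. DESeq2 called 1 higher and 5 lower, where 9.57 and 8.36% of its genes were called. Fkbp5 codes for an immunophilin that sits on HSP90 in steroid receptor complexes and is itself induced by glucocorticoids. It had 69.6, 79.5 and 43.2 CPM in libraries labelled Ptpro-KO and 18.4, 14.6 and 19.5 CPM in those labelled WT, far apart, with a log2 fold change of 1.87 (SE 0.26, edgeR adjusted p = 0.0277). Chordc1, whose product binds HSP90 through zinc-binding CHORD domains, had 31.1, 26.6 and 29.3 CPM under Ptpro-KO and 47.4, 41.1 and 44.4 CPM under WT. It fell without overlap by 0.61 on the log2 scale (SE 0.11, edgeR adjusted p = 0.0434). With 1 library left out, Fkbp5 passed in 1 of 6 edgeR fits and Chordc1 in 0 of 6. Over the 15 alternative settings Fkbp5 passed in 8 and Chordc1 in 3. In all, 19 of the 22 had a log2 fold change below 0 (median -0.24), or 15 of 22 with library totals. In 11 of 22 the labels did not overlap in CPM with TMM, with Ptpro-KO lower, against 15.7% of all genes. In RPKM, without TMM, Bag2, Bag4, Stub1, Ahsa1, Cdc37, Ptges3 and Tcp1 of these overlapped. Bag1, an HSP70 exchange factor and the second most abundant of the list per length, had 117, 97.0 and 116 CPM under Ptpro-KO and 119, 120 and 101 CPM under WT, overlapping.

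The cytosolic chaperonin is a ring complex, TRiC, that folds actin and tubulin, and its subunits assemble in a fixed ratio. None of the 7 subunits named Cct passed the test with edgeR, where 2 had an unadjusted p under 0.05, and DESeq2 called 1. All 7 had a log2 fold change below 0 with TMM, between -0.39 and -0.13 (median -0.24), and 6 of 7 with library totals, where Cct7 was above 0. In 5 of the 7 (71.4%) the labels did not overlap in CPM with TMM, with Ptpro-KO lower, against 15.7% of all genes. In RPKM, without TMM, Cct3, Cct4 and Cct5 overlapped. The summed RPKM of the 7 also overlapped, with 690 to 737 under Ptpro-KO and 715 to 859 under WT. With both libraries poor in muscle RNA left out, a choice made after seeing the data, the median was -0.15.

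Cct6a showed the largest difference, with 162, 149 and 145 CPM in libraries labelled Ptpro-KO, against 192, 218 and 188 CPM in those labelled WT. The groups did not overlap, and the log2 fold change was -0.39 (SE 0.11) with an edgeR adjusted p of 0.0992 and a DESeq2 adjusted p of 0.0125. Cct8 had 186, 157 and 166 CPM under Ptpro-KO and 209, 231 and 197 CPM under WT, also apart (log2 fold change -0.32, SE 0.12, edgeR adjusted p = 0.162). Cct2 was the subunit of highest level per length under the Cct names (mean 139 RPKM). It had 253, 280 and 245 CPM under Ptpro-KO and 267, 329 and 267 CPM under WT, which overlapped. Cct4 and Cct5 had log2 fold changes of -0.22 and -0.24 with adjusted p values of 0.240 and 0.249 in edgeR.

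The remaining subunit of the ring, Tcp1, does not carry the Cct name and was read with the co-chaperones. It had 276, 283 and 242 CPM under Ptpro-KO and 310, 359 and 303 CPM under WT, which were apart. Its log2 fold change was -0.28 (SE 0.13, edgeR adjusted p = 0.236). Prefoldin, which hands actin and tubulin chains to the ring, had 0 of 6 subunits past the threshold and 1 at an unadjusted p under 0.05 by edgeR, with 0 called by DESeq2. Pfdn5 had a log2 fold change of 0.01 and Pfdn1 of -0.33.

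Mitochondrial chaperones showed no call. Of 9 tested, 8 had a log2 fold change below 0 (median -0.17), or 5 of 9 with library totals. The median was -0.06, with 5 of 9 below 0, without replicate 2 labelled Ptpro-KO, and -0.26 with both libraries poor in muscle RNA left out. Over all 6 libraries, 2 were lower at an unadjusted p under 0.05 in edgeR, with 0 called by DESeq2. These were Hspd1 and Hspe1, which code for HSP60 and its lid HSP10, the folding chamber of the matrix.

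Hspd1 had 173, 152 and 198 CPM in libraries labelled Ptpro-KO and 223, 233 and 215 CPM in those labelled WT. Hspe1 had 41.3, 37.0 and 48.7 CPM under Ptpro-KO and 49.8, 59.7 and 55.9 CPM under WT. In CPM both were lower in every library labelled Ptpro-KO. The log2 fold changes were -0.36 for Hspd1 (SE 0.13, edgeR adjusted p = 0.160) and -0.38 for Hspe1 (SE 0.14, edgeR adjusted p = 0.160), and neither passed the test. In RPKM, without TMM, both overlapped. Replicate 3 labelled Ptpro-KO had 86.8 RPKM of Hspd1 and 66.2 of Hspe1, and replicate 1 labelled WT had 84.5 and 58.7. The genes are transcribed in opposite directions from a shared region on chromosome 1, where their annotated ends overlap by 112 bases. The ratio of Hspd1 to Hspe1 in RPKM was 1.31 to 1.35 under Ptpro-KO and 1.24 to 1.44 under WT, ranges that overlapped.

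The stretch of that region that holds the motif of 3 units is shown because it counts for both genes. It has 2 overlapping matches and lies in the RefSeq window at chr1:55088053-55088082 of GRCm38.p6, on the minus strand of Hspd1 at bases -144 to -127 from that start site and within an annotated Hspd1 exon, and capitals run over both matches.
Hspd1: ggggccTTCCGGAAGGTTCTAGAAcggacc

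Hspa9, the HSP70 of the matrix known as mortalin, had 330, 275 and 351 CPM under Ptpro-KO and 328, 363 and 299 CPM under WT, overlapping, with a log2 fold change of -0.05. Among 10 other genes of mitochondrial folding and proteolysis, 0 passed in edgeR, 1 was lower and 1 higher at an unadjusted p under 0.05, and DESeq2 called 1 in each direction. Yme1l1, a protease of the inner membrane, had 144, 128 and 142 CPM under Ptpro-KO, against 179, 180 and 187 CPM under WT. Its groups were apart and its edgeR adjusted p was 0.0764 (log2 fold change -0.40, SE 0.10). Trap1, the mitochondrial HSP90, had a log2 fold change of -0.32 (SE 0.14, edgeR adjusted p = 0.222).

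Chaperones of the ER had positive fold changes on balance, without a call. Of 14 tested, 11 had a log2 fold change above 0 (median 0.20), or 13 with library totals. This was 8 of 14 (median 0.10) without replicate 3 labelled Ptpro-KO, 10 of 14 (median 0.13) without replicate 2 labelled WT, and 7 of 14 (median 0.02) without either. Over all 6 libraries, 0 passed in edgeR or DESeq2, and 0 had an unadjusted p under 0.05. Replicate 3 labelled Ptpro-KO set the largest differences. In 1 of the 14, Dnajc1, the labels did not overlap with Ptpro-KO higher, against 16.8% of all genes. Dnajc1 had 53.1, 52.8 and 62.6 CPM under Ptpro-KO and 51.1, 45.1 and 50.7 CPM under WT. Its log2 fold change was 0.20 (SE 0.11, edgeR adjusted p = 0.338).

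Hspa5, the ER HSP70 known as BiP and the sensor partner of the unfolded protein response, had 494, 349 and 1140 CPM in libraries labelled Ptpro-KO and 613, 331 and 415 CPM in those labelled WT. Hsp90b1, the ER HSP90 known as GRP94, had 563, 318 and 1005 CPM under Ptpro-KO and 515, 356 and 375 CPM under WT. In both genes replicate 3 labelled Ptpro-KO was the highest of the 6 libraries, and replicate 2 of the same label was the lowest or next to it. The log2 fold changes were 0.55 for Hspa5 (SE 0.48, edgeR adjusted p = 0.534) and 0.60 for Hsp90b1 (SE 0.42, edgeR adjusted p = 0.433). Without replicate 3 labelled Ptpro-KO they were -0.10 and 0.08.

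The J partners of BiP were highest in the same library. Dnajb11 had 73.4, 58.4 and 107 CPM under Ptpro-KO and 75.5, 66.4 and 61.8 CPM under WT. Dnajc3, which also restrains the kinase PERK, had 152, 127 and 197 CPM under Ptpro-KO and 137, 92.9 and 118 CPM under WT. Dnajc10, a reductase that opens wrong disulfide bonds, had 105, 91.7 and 140 CPM under Ptpro-KO and 80.6, 96.4 and 77.2 CPM under WT. Each of the 3 overlapped between labels. Dnajb9, a J protein strongly induced by the unfolded protein response, had 13.5, 13.9 and 16.4 CPM under Ptpro-KO and 20.6, 14.2 and 18.3 CPM under WT, and so did not share the pattern.

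**Figure D3:**
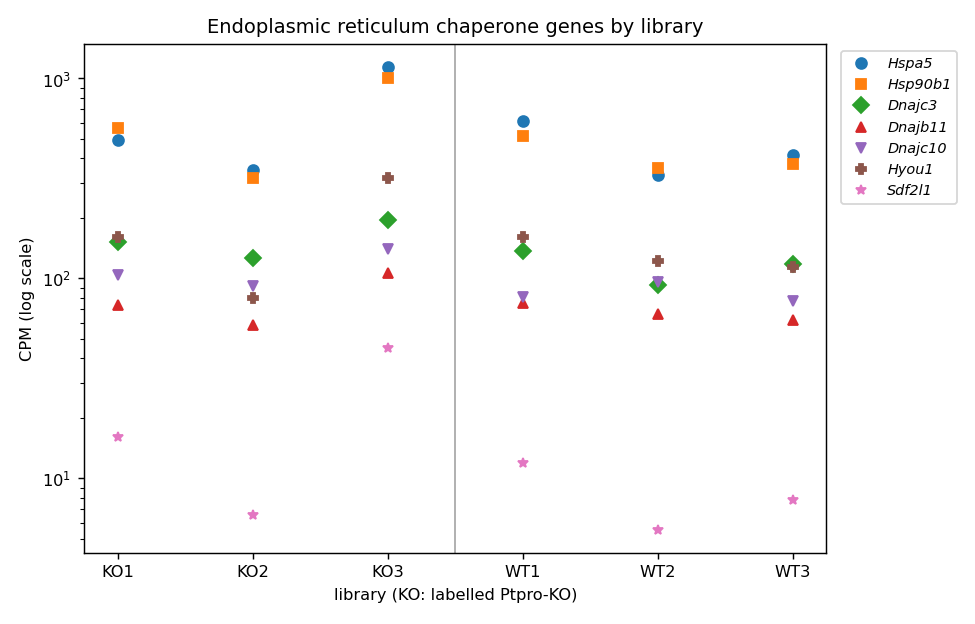
CPM on a log axis of 5 ER chaperone members and of Hyou1 and Sdf2l1 from the partner list, in each library (KO, labelled Ptpro-KO). Every gene shown is highest in replicate 3 labelled Ptpro-KO, where Hspa5 reaches 1140 CPM.

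The list of 18 further ER folding and unfolded protein response genes also had positive fold changes on balance. It had 16 members above 0 (median 0.36), 0 past the threshold in edgeR or DESeq2 and 2 higher at an unadjusted p under 0.05. These were Atf6 and Sil1, neither of which overlapped between labels. Atf6 had 90.0, 89.8 and 86.8 CPM under Ptpro-KO and 81.8, 63.0 and 57.7 CPM under WT. It was not highest in replicate 3 labelled Ptpro-KO. Sil1 was, with 24.4, 22.4 and 41.7 CPM under Ptpro-KO and 19.7, 16.9 and 19.4 CPM under WT. Without replicate 3 labelled Ptpro-KO, 8 of the 18 were above 0 and the median was -0.02. Calr, the calcium-binding lectin chaperone, had 498, 293 and 683 CPM under Ptpro-KO and 514, 393 and 406 CPM under WT, and P4hb, the disulfide isomerase, had 612, 579 and 805 CPM under Ptpro-KO and 714, 605 and 646 CPM under WT. Both were highest in replicate 3 labelled Ptpro-KO and overlapped. Hyou1, the ER exchange factor, had 160, 80.1 and 319 CPM under Ptpro-KO and 161, 123 and 114 CPM under WT. The gastric transcripts given above, Pgc, Tff1 and Muc5ac, were highest in the same library, and their part in its ER chaperone levels was not tested.

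Summed per transcript length, on the deposited RPKM scale without TMM, the ER members gave 588, 449 and 1093 RPKM in the libraries labelled Ptpro-KO and 554, 408 and 445 RPKM in those labelled WT. The cytosolic members gave 1950, 1906 and 1746 RPKM under Ptpro-KO, against 2591, 2430 and 2391 RPKM under WT. The cytosolic sums did not overlap, and Hspb1 alone gave 427, 245 and 329 RPKM under Ptpro-KO and 819, 709 and 798 RPKM under WT. Without Hspb1 the cytosolic sums were 1523, 1661 and 1418 RPKM under Ptpro-KO and 1772, 1722 and 1592 RPKM under WT. On this scale they overlapped. These sums were not made with TMM, where 18 of the 20 cytosolic members, Hspb1 among them, had a log2 fold change below 0. With Hspb1 the cytosolic members made up 47.2% ± 4.77 of all member RPKM under Ptpro-KO and 56.4% ± 0.35 under WT (SD, n = 3 each), and the ER members made up 17.6% ± 7.54 under Ptpro-KO and 10.7% ± 1.36 under WT. All members together gave 3726 to 4169 RPKM under Ptpro-KO and 4227 to 4576 RPKM under WT. No test was made on these sums.

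**Figure D4:**
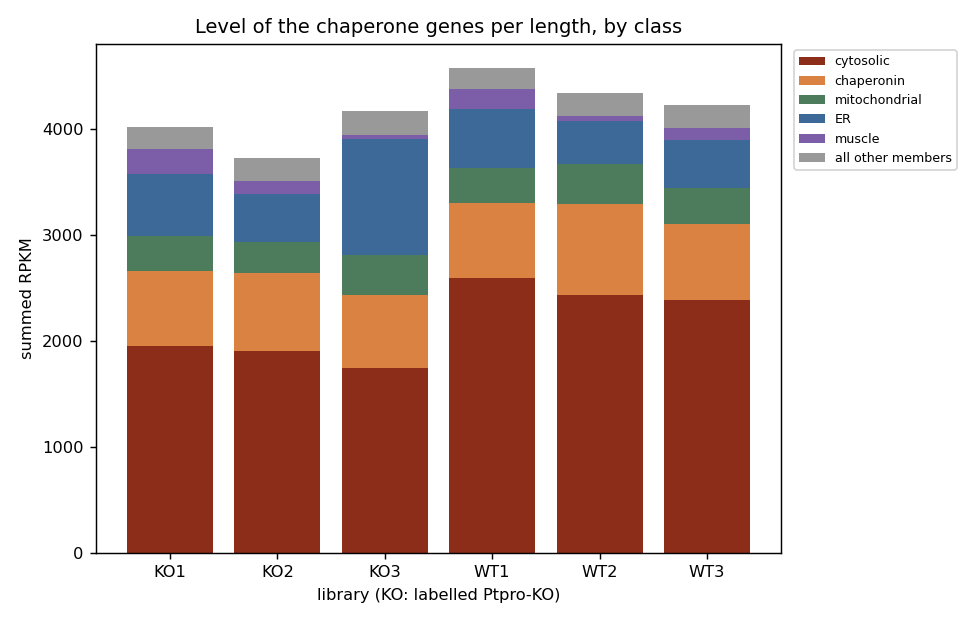
Summed RPKM of the 87 members in each library (KO, labelled Ptpro-KO), stacked by class on an axis from 0. The cytosolic part is 1746 to 1950 RPKM in the libraries labelled Ptpro-KO and 2391 to 2591 RPKM in those labelled WT, and the ER part is largest in replicate 3 labelled Ptpro-KO.

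The small heat shock genes of muscle varied between libraries with the level of muscle markers, within each label. None of the 5 passed the test, none had an unadjusted p under 0.05 in edgeR and DESeq2 called 0. Hspb7, a small heat shock protein of heart and skeletal muscle, had 179, 74.6 and 5.85 CPM in libraries labelled Ptpro-KO and 84.1, 1.12 and 38.7 CPM in those labelled WT. Hspb6, known as HSP20 and found in smooth and striated muscle, had 113, 32.0 and 6.40 CPM under Ptpro-KO and 98.4, 2.43 and 44.3 CPM under WT. In both genes replicate 3 labelled Ptpro-KO and replicate 2 labelled WT, the libraries poor in muscle RNA, were the lowest.

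Hspb2 and Hspb3 form a complex in muscle cells. Hspb2 had 9.74, 3.80 and 0.527 CPM under Ptpro-KO and 8.50, 0.199 and 5.13 CPM under WT. Hspb3 had 2.80, 0.774 and 0.0527 CPM under Ptpro-KO and 1.57, 0 and 1.46 CPM under WT, where 0 reads allow up to 0.1196 CPM in that library. Both had the same order of libraries as Hspb6. Cryab, the alpha-B crystallin that neighbors Hspb2 in the genome, had 153, 42.8 and 10.2 CPM under Ptpro-KO and 77.1, 5.26 and 58.7 CPM under WT.

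Ckm, the creatine kinase of muscle, had 1029, 344 and 5.75 CPM under Ptpro-KO and 1129, 0.279 and 882 CPM under WT. Between the labels the log2 fold changes of the muscle members ran from -0.41 to 1.06 with standard errors of 1.33 to 1.53 for all but Hspb8. With the libraries poor in muscle RNA left out, Hspb7 had a log2 fold change of 1.04 and Hspb6 of 0.02. Hspb8, which works with BAG3 in clearing damaged muscle filaments, is also expressed outside muscle. It had 122, 114 and 49.9 CPM under Ptpro-KO and 167, 84.6 and 128 CPM under WT, and stayed well above 0 in the libraries poor in muscle RNA. Bag3 itself had 40.9, 28.8 and 26.9 CPM under Ptpro-KO and 44.1, 33.6 and 35.6 CPM under WT, overlapping. Of 5 muscle folding partners, 0 passed in edgeR or DESeq2 and 0 had an unadjusted p under 0.05. Among them Fbxo32, a ubiquitin ligase of muscle wasting, had 102, 186 and 40.7 CPM under Ptpro-KO and 173, 42.6 and 81.0 CPM under WT.

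**Figure D5:**
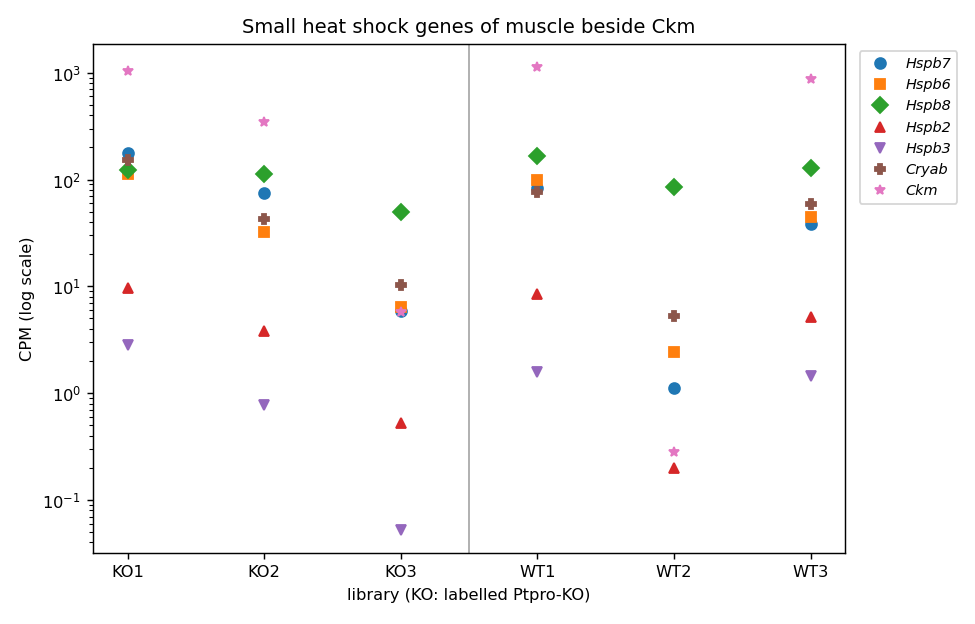
CPM on a log axis of the 5 small heat shock genes of muscle beside Cryab and the muscle marker Ckm in each library (KO, labelled Ptpro-KO); the value of 0 for Hspb3 in replicate 2 labelled WT is not drawn. All are lowest in replicate 3 labelled Ptpro-KO and replicate 2 labelled WT, and Hspb8 differs least between libraries.

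Among genes known mainly from the germ line, 6 of 13 passed the filter and 0 passed the test in edgeR, with 1 higher and 1 lower at an unadjusted p under 0.05 and 1 higher by DESeq2. Hspa2, an HSP70 needed for male meiosis, had 19.6, 22.5 and 11.5 CPM in libraries labelled Ptpro-KO and 9.83, 7.97 and 10.1 CPM in those labelled WT. It was the one member at an unadjusted p under 0.05 that was higher, without overlap (log2 fold change 0.94, SE 0.28, edgeR adjusted p = 0.112, DESeq2 adjusted p = 0.0210). Hspa1l, an HSP70 of the testis, lies 546 bases from Hspa1a on the opposite strand and showed the opposite sign to Hspa2. It had 23.1, 20.7 and 16.7 CPM under Ptpro-KO and 34.3, 25.7 and 28.3 CPM under WT, without overlap (log2 fold change -0.55, SE 0.18, edgeR adjusted p = 0.132). It resembles Hspa1a in sequence, and the sources used here do not state whether the counting used strand, so that reads of Hspa1a in its row cannot be told apart. Hspa4l, an HSP110 gene, had 132, 186 and 149 CPM under Ptpro-KO and 157, 168 and 147 CPM under WT, overlapping.

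The vesicle, nuclear and other J proteins had no call among 10 tested of 11, with 1 lower at an unadjusted p under 0.05 in edgeR and 1 called by DESeq2. This was Dnajc6, auxilin, which recruits HSC70 to strip clathrin from vesicles. It had 7.83, 22.9 and 6.38 CPM in libraries labelled Ptpro-KO and 27.5, 31.5 and 48.7 CPM in those labelled WT. The groups did not overlap but both spread widely, and the log2 fold change of -1.54 (SE 0.54) had an edgeR adjusted p of 0.154 and a DESeq2 adjusted p of 0.0271.

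Dnajc9, a J protein that also chaperones histones, had 16.7, 16.3 and 25.7 CPM under Ptpro-KO and 25.6, 26.9 and 26.0 CPM under WT. Replicate 3 labelled Ptpro-KO reached the WT level there and the other libraries of that label did not. Dnajc5, the cysteine string protein of secretory vesicles, had 144, 150 and 146 CPM under Ptpro-KO and 151, 157 and 153 CPM under WT, a log2 fold change of -0.07. Dnajc8, of the spliceosome, and Dnajc13, of endosomes, had log2 fold changes of -0.14 each. With library totals Dnajc5, Dnajc8 and Dnajc13 had log2 fold changes of 0.08, 0.01 and 0.01.

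Of the heat shock factors, 0 of 3 tested passed in edgeR or DESeq2, and 0 had an unadjusted p under 0.05. Hsf1, the factor of the heat shock response, had 20.9, 16.7 and 23.5 CPM in libraries labelled Ptpro-KO and 28.4, 21.6 and 23.2 CPM in those labelled WT, overlapping (log2 fold change -0.26, SE 0.18, edgeR adjusted p = 0.419). Hsf2, active in development, had 17.5, 17.3 and 12.6 CPM under Ptpro-KO and 16.6, 12.6 and 14.8 CPM under WT. Hsf4, best known from the lens, had 2.13, 2.65 and 1.90 CPM under Ptpro-KO and 3.91, 2.83 and 3.13 CPM under WT, apart but not past the test (edgeR adjusted p = 0.231). HSF1 is regulated mainly as a protein, which RNA does not measure. Of the others, Hspa12a and Hspa12b, distant HSP70 relatives, and Hspb11, a subunit of ciliary transport, had log2 fold changes of 0.55, 0.15 and 0.08.

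The 10 members that did not pass the filter were Cct8l1, Dnajb3, Dnajb7, Dnajb8, Dnajb13, Dnajc5b, Dnajc5g, Dnajc22, Hsf3 and Hspb9. Dnajb8, a testis J protein, had 0 reads in all libraries, which allows up to 0.0704 to 0.0830 CPM under Ptpro-KO and 0.0870 to 0.1196 CPM under WT for counting error alone. Dnajc22 was high in 1 library, with 0.277, 0.0469 and 12.0 CPM under Ptpro-KO and 0.0580 to 0.214 CPM under WT. Its high value was in replicate 3 labelled Ptpro-KO, the library with gastric transcripts. The other 8 stayed at or under 0.659 CPM in every library.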

How the data were processed

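Total RNA of 6 tumors was sequenced on an Illumina HiSeq 2500, and the submitters' processing notes name Bowtie 0.12.2 and mm10. The authors deposited, for each sample, read counts and RPKM per Ensembl transcript, the RPKM being relative to transcript length and library total (recomputed here to a relative error of 5.41e-07). An FPKM table of the authors, one row per gene, served as an alternative input while their table of scaled counts and 2 further value columns were not used. The sources used here do not state how reads shared by isoforms or paralogs were assigned.

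Counts and RPKM were summed per symbol (0 reads had no gene name). Of 100249 transcripts 97.3% were in GENCODE M21 (GRCm38, the assembly of mm10), which gave positions for 87 members. Genes were filtered with filterByExpr (10 counts in 3 libraries, 15 in total), scaled by TMM and tested with edgeR 4.0.16 in R 4.3.3, without a block. The common coefficient of variation was 0.398. The standard error is the log2 fold change over the root of F. The limit for 0 reads is 3 counts per library and covers counting error only. No pair within a label was a duplicate (chi-square over degrees of freedom, 66.9 to 307). On simulated counts of this comparison (17379 genes), the test called 1 of 98 genes with a 2-fold change, 35 of 95 with a 4-fold change and 5 of 17186 without a change.

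Members, classes and lists were chosen with earlier results of these data known. Named genes were the called members, in each class the 3 of highest mean RPKM and the 2 of largest fold change at a mean log2 CPM of at least 1, all muscle members, heat shock factors with reads, and in each partner list the called genes and the 2 of highest RPKM. Other members are named to account for their class, with values known. Alternatives were DESeq2 1.42.0, limma 3.58.1 (voom, and log2(FPKM + 1) or log2(FPKM + 0.1) with its own filter on low values), RLE and unscaled library sizes, no filter, the replicate block and left-out libraries.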

Additional observations from a re-analysis of the deposited data

How the results depend on the processing

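The reported fit called 320 genes higher and 405 lower, and 0 members higher and 4 lower. DESeq2 called 1682 genes higher and 1470 lower, with 1 member higher and 7 lower. Library totals without scaling called 630 genes higher and 294 lower, and 2 members lower (Dnajb1 and Hspb1), and no filter on low counts 2 members lower (the same genes). Leaving out 1 library gave 0 to 253 genes higher, 0 to 243 lower, 0 to 1 members higher (Hspa2) and 0 to 1 lower (Dnajb1). With both libraries poor in muscle RNA left out, 0 genes were higher, 0 were lower and 0 members were called lower. In that fit 11 of 77 members were lower and 1 was higher at an unadjusted p under 0.05 in edgeR. Among all genes 3627 of 17917 had such a p, in either direction. RLE, limma-voom and both FPKM fits called the same 4 members. The log2 fold change of Ptpro, 3.97 as reported, passed with DESeq2 (3.98), library totals (4.15), limma on log2(FPKM + 1) (2.32) and limma-voom (4.53). The cause of these differences was not tested.

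The replicate block called 133 genes higher and 104 lower, with 1 member lower (Dnajb1). The numbers share no stated source, and same-numbered libraries correlated at 0.54, 0.08 and -0.24 in their deviations, so the block is given only here. In the simulation 2-fold changes were rarely called, for genes drawn at random from all those tested. It used only this replicate number and does not describe well-expressed genes with little spread. In these data Hspa1a, Hspa1b and Chordc1 were called at changes of 1.73-fold, 1.89-fold and 1.53-fold with all 6 libraries. None of these genes was called with any 1 library left out.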
